A study of Mus musculus with 12 samples.

Results

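The comparison described here is the difference between 2 fasting responses in mouse liver, that of NTS KO mice minus that of NTS WT mice, and it covers all 12 mice of the study's RNAseq experiment. Each response was the log2 fold change of a gene in fasted over fed liver within a genotype, so a difference above 0 means that the fasted-over-fed ratio was higher in NTS KO. Of 48795 genes in the count table, 13812 had enough counts to be tested. The 4 groups held 3 mice each: fed NTS WT, NTS WT fasted for 22 h, fed NTS KO and NTS KO fasted for 22 h. NTS WT and NTS KO stand for Nts+/+ and Nts-/- littermates from heterozygous parents, the KO being a whole-body deletion of neurotensin, a gut and brain peptide released after fat intake. All 12 were 4-month-old females on normal chow, the fed ones with free access to food, and total RNA came from snap-frozen liver. Because the deletion is present in every tissue, the design does not separate an effect in liver from one reaching it from outside.

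The 12 libraries held 21999647 to 45273069 counts, and the log2 levels of each library correlated with those of its group at a mean r of 0.972 to 0.982, which does not show differences in a few genes. Mouse 290 of the fasted NTS KO group stood apart on immune cell markers, with 104 CPM (counts scaled to a common library total, with TMM factors) of Marco, a macrophage receptor, against 38.0 at most in the other 11 libraries, and results resting on such markers are given below also without it. Hepatocyte markers made up 108250 to 138618 CPM in every library, summed over 6 of 7 genes. The count of the deleted gene went against the labels. Nts had 0 counts in all 6 libraries labelled NTS WT, 46, 40 and 15 in the fed and 12, 4 and 18 in the fasted libraries labelled NTS KO. The genotype names below are therefore those of the labels, and an exchange of the 2 names would turn the sign of every difference while leaving the agreement of the responses as it is. Which counted region of the gene the deletion leaves is not given in the sources used here.

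When food is withdrawn, the liver stops making fat and cholesterol, burns fatty acids that arrive from adipose tissue, exports ketone bodies and makes glucose from amino acids, lactate and glycerol. The nuclear receptor PPARalpha switches on many of the fat-burning genes, glucagon and glucocorticoids act on the gluconeogenic ones, and the transcription factors SREBP1 and SREBP2, active in the fed state, drive fatty acid and cholesterol synthesis. Neurotensin acts on cells through the receptors NTSR1 and NTSR2 and binds sortilin, the product of Sort1.

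Livers of both genotypes responded broadly to fasting, with the same leading genes. Cyp4a14, a fatty acid hydroxylase and PPARalpha target, rose by a log2 fold change of 3.28 in NTS WT and 3.72 in NTS KO, and the hormone gene Fgf21 by 2.96 in NTS WT and 2.97 in NTS KO. Srebf1, the gene of SREBP1, fell, with a log2 fold change of -2.90 in NTS WT and -3.32 in NTS KO. With edgeR's quasi-likelihood test and Benjamini-Hochberg adjustment, 1231 genes rose (8.91% of those tested) and 1270 fell (9.19%) in NTS WT at an adjusted p under 0.05. In NTS KO, 1063 rose (7.7%) and 1263 fell (9.14%).

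The calls overlapped, and none turned. The 1481 genes past the threshold in both genotypes were 59.2% of the NTS WT calls and 63.7% of the NTS KO calls, and all 1481 had the same sign, 721 higher and 760 lower. Of the 2501 genes called in NTS WT, 2442 (97.6%) had an estimate of the same sign in NTS KO. The NTS WT fold change compares NTS WT mice only, but the spread behind its p came from mice of both genotypes. The choice of these genes was therefore not independent of the NTS KO mice. Without mouse 319 of the fed NTS KO group, the NTS WT calls numbered 2770. Of the 2326 called in NTS KO, 2279 (97.98%) had the same sign in NTS WT. The 1020 genes called in NTS WT alone had a median size of 0.69 there and a median of 0.34 in the same direction in NTS KO. For the 845 called in NTS KO alone the values were 0.73 and 0.36. Being called in 1 genotype was thus not the same as differing between them. With edgeR none of these genes passed the test of the difference, and with DESeq2 Arl4d and Gm26675, both called in NTS KO alone, did. In edgeR, 177 of the 1020 and 123 of the 845 had an unadjusted p under 0.05 for the difference, beside 663 of all 13812 genes. Passing in 1 genotype only rests on the same values as the difference, so a higher share is built in.

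In size, the responses of the shared calls matched closely, a set that leaves out the genes called in 1 genotype alone. Among the 1481 shared calls the median response was 0.92 in NTS WT and 0.94 in NTS KO, the median ratio of NTS KO to NTS WT was 1.02 (quartiles 0.855 and 1.21), and 798 genes had the larger response in NTS KO. The ratio was 1.02 for genes that rose and 1.02 for genes that fell. A response of at least 1 on the log2 scale in either direction was seen for 1430 genes in NTS WT and 1425 in NTS KO, and one of at least 2 for 298 and 332.

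Across the 13812 genes, which are not independent of each other, the responses had a Pearson r of 0.698 and a Spearman rho of 0.659, with a major axis slope of 1.03 (NTS KO on NTS WT). The 2 responses share no mouse. Among the 6906 genes above the median expression, r was 0.840, rho 0.762 and the slope 1.05. With the sampling variance of the fold changes subtracted, r was 0.876 over all genes and 0.967 above the median expression. Of the 159 genes whose NTS WT response was -2 or lower, 91.8% lay on the same side of 0 in NTS KO, as did 90.6% of the 139 at 2 or higher, beside 69.5% of the 4573 between -0.5 and 0. The difference itself had an SD of 0.32 across the genes above the median expression, where its root mean square standard error was 0.29.

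**Figure D1:**
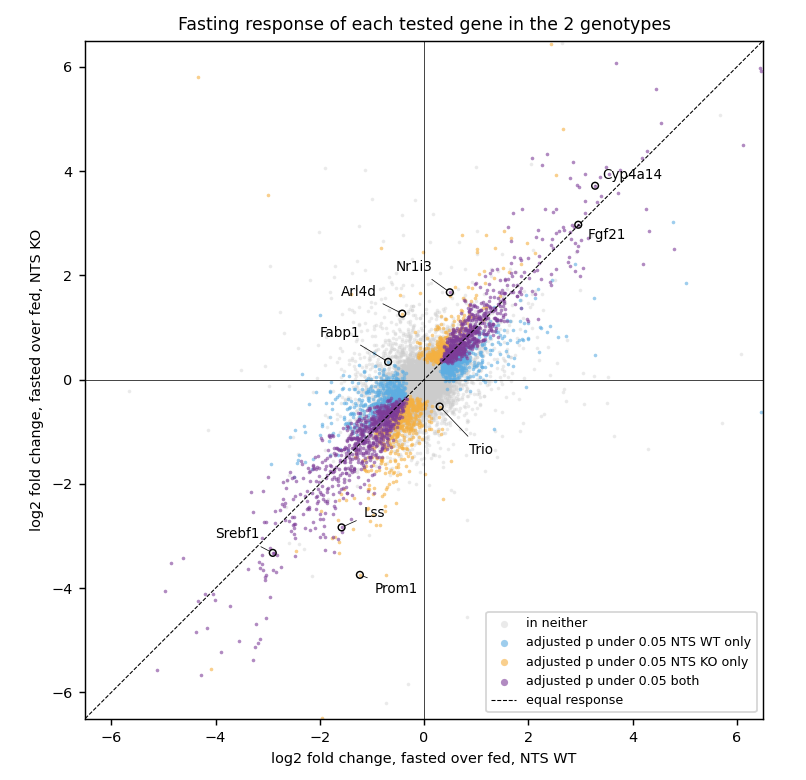
Log2 fold change of fasted over fed liver for each tested gene in NTS WT (x) and NTS KO (y), colored by the genotype in which edgeR's adjusted p was under 0.05; 14 genes lie beyond the axes. The shared calls follow the line of equal response, with Cyp4a14 in its upper and Srebf1 in its lower part, while Nr1i3, Arl4d and Fabp1 lie above it and Lss, Prom1 and Trio below.

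Of 12 genes induced by fasting, 5 rose in NTS WT and 7 in NTS KO, the 5 of NTS WT, with Cpt1a, Fgf21, Cyp4a14 and Cd36, among those of NTS KO. The median response was 1.27 in NTS WT and 1.55 in NTS KO, and 10 of 12 differences lay above 0, with a median of 0.24 against -0.020 over all tested genes. Without mouse 323 of the fed NTS WT group, 7 of 12 lay above 0 and the median was 0.094. Cpt1a, the gate for fatty acids into the mitochondrion, had 216, 199 and 372 CPM in the fed NTS WT mice, 800.2, 839.7 and 631 in the fasted NTS WT mice, 319, 208 and 254 in the fed NTS KO mice and 714, 922 and 845 in the fasted NTS KO mice. Fed and fasted mice did not overlap in either genotype, and the difference was 0.14 (95% interval -0.57 to 0.84). For Cd36, a fatty acid transporter, it was 0.13 (95% interval -0.72 to 0.98).

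The gluconeogenic genes varied more from mouse to mouse. Pck1, which commits carbon to glucose synthesis, had 1628, 1611 and 896 CPM in the fed NTS WT mice, 2339, 3043 and 2878 in the fasted NTS WT mice, 1319, 326 and 1699 in the fed NTS KO mice and 3189, 2263 and 4074 in the fasted NTS KO mice. Its response was 0.999 in NTS WT and 1.51 in NTS KO, past the threshold in neither, and the difference of 0.51 (95% interval -1.03 to 2.05) leaves room for a gap of either sign. G6pc, the last step of glucose release, rose in NTS KO (1.43, edgeR adjusted p = 0.00949) and had an estimate of 0.86 in NTS WT (edgeR adjusted p = 0.0766), but its difference of 0.57 (95% interval -0.38 to 1.52) did not pass. Over the 14 genes of gluconeogenesis the median difference was 0.015. Ppargc1a, the coactivator PGC1alpha, had estimates of 0.75 in NTS WT and 0.99 in NTS KO and a difference of 0.24 (95% interval -0.80 to 1.29). The 13 genes of the PGC1 coactivators and mitochondrial biogenesis had a median difference of -0.043, with 5 above 0.

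All 12 fed-side genes had a difference below 0, that is, a lower fasted-over-fed ratio in NTS KO. Their median response was -2.10 in NTS WT and -2.89 in NTS KO, 10 fell in NTS WT and 11 in NTS KO, and the median difference was -0.47. That median ran from -0.68 without mouse 319 to -0.27 without mouse 323. Without mouse 323, 3 of the 12 differences lay above 0, and without mouse 303, 2 did. The difference nearest 0 was that of Me1, the malic enzyme, at -0.080. Fasn, fatty acid synthase, had 340.0, 441 and 181 CPM in the fed NTS WT mice, 88.1, 110.0 and 54.3 in the fasted NTS WT mice, 660.5, 688 and 304 in the fed NTS KO mice and 62.3, 51.9 and 98.6 in the fasted NTS KO mice. The fed NTS KO mice reached the highest levels and the fasted mice of the genotypes overlapped, with a difference of -1.03 (95% interval -2.33 to 0.28). Srebf1 overlaps Rai1, whose reads cannot be told apart from its own by position.

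With edgeR, no gene passed the test of the difference, and with DESeq2 few did. With edgeR, 0 of 13812 genes (0%) had an adjusted p under 0.05, the smallest being 0.888, and 663 had an unadjusted p under 0.05, 354 with a higher (2.56%) and 309 with a lower response in NTS KO (2.24%). Limma-voom called 0 genes at the adjusted threshold and 702 at the unadjusted one. DESeq2's Wald test called 3 (0.0217%): Nr1i3, Arl4d and Gm26675. The median 95% interval of a difference reached 0.58 to either side of its estimate, and for 8603 genes (62.3%) the whole interval lay within 1 of 0, the unit of the log2 scale. Of the 663 genes, 625 had genotype gaps of opposite sign in fed and in fasted liver. The difference equals the fasted gap minus the fed gap, so choosing genes by its p favors opposite signs, and a high share is built in. The gap was the wider in fed liver for 387 of the 663, beside 51.2% of all tested genes.

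The smallest p belonged to Nr1i3, the constitutive androstane receptor (CAR), a nuclear receptor that governs drug-metabolizing enzymes in liver. It had 191, 148 and 139.5 CPM in the fed NTS WT mice, 229.9, 226 and 219 in the fasted NTS WT mice, 91.9, 93.4 and 78.9 in the fed NTS KO mice and 301, 307 and 236 in the fasted NTS KO mice. All 3 fed NTS KO mice lay below every fed NTS WT mouse, and all 3 fasted NTS KO mice above every fasted NTS WT mouse. The gene rose in both genotypes, with a response of 0.49 in NTS WT and 1.67 in NTS KO, and the difference was 1.18 (95% interval 0.73 to 1.63) (edgeR adjusted p = 0.888, DESeq2 adjusted p = 3.89e-04). It overlaps Tomm40l, and reads from the shared stretch cannot be assigned by their position alone. Of the xenobiotic list, to which Nr1i3 belongs, 18 of 23 differences lay above 0, with none but Nr1i3 (in DESeq2) past the threshold and a median of 0.26, and Cyp2b10, known as a CAR target and named here after its value was seen, had a difference of -1.37 (95% interval -4.15 to 1.41).

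Arl4d, a small GTPase of the ARF family, had 33.9, 32.6 and 16.4 CPM in the fed NTS WT mice, 27.04, 14.6 and 20.6 in the fasted NTS WT mice, 15.5, 14.7 and 15.6 in the fed NTS KO mice and 44.0, 33.2 and 33.0 in the fasted NTS KO mice. It rose in NTS KO (1.27, edgeR adjusted p = 0.00789) and had an estimate of -0.42 in NTS WT, where fed and fasted mice overlapped. Its difference was 1.69 (95% interval 0.87 to 2.50) (DESeq2 adjusted p = 0.0299). Fabp1, the abundant fatty acid binding protein of the hepatocyte, had 4088, 3510.1 and 3419 CPM in the fed NTS WT mice, 2660.4, 1923 and 2248 in the fasted NTS WT mice, 1906, 2159.6 and 2672 in the fed NTS KO mice and 3063, 2426 and 3042 in the fasted NTS KO mice. It fell in NTS WT (-0.69, edgeR adjusted p = 0.0156), whereas its estimate in NTS KO was 0.34, and the difference was 1.03 (95% interval 0.50 to 1.56) (DESeq2 adjusted p = 0.0573). Fabp1 is a PPARalpha target, and it had the highest difference among the 20 genes of that list.

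Wfdc17, Hcls1, Ifi27l2a, Gm20390 and Zmynd15 completed the 8 smallest p with a higher response in NTS KO. Wfdc17, a secreted protein of macrophages, had 19.98, 14.6 and 16.8 CPM in the fed NTS WT mice, 6.03, 7.17 and 7.32 in the fasted NTS WT mice, 10.7, 7.85 and 10.7 in the fed NTS KO mice and 8.75, 10.3 and 7.02 in the fasted NTS KO mice, and a difference of 1.14 (95% interval 0.59 to 1.70). Hcls1, a signaling adaptor of blood cells, had 1.202 (95% interval 0.59 to 1.82), and Ifi27l2a, an interferon-inducible gene, 1.74 (95% interval 0.82 to 2.66). All 3 fell in NTS WT, and none passed the threshold in NTS KO. Without mouse 290 the differences were 1.01 for Wfdc17 and 0.92 for Hcls1. Gm20390, which overlaps Nme1 and Nme2 and so cannot be told from them by position, had 1.33 (95% interval 0.69 to 1.97). Zmynd15, which overlaps Cxcl16, had 1.52 (95% interval 0.71 to 2.34) at a mean of 1.36 CPM.

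On the lower side, Lss, lanosterol synthase of the cholesterol pathway, had 67.9, 59.4 and 46.9 CPM in the fed NTS WT mice, 20.6, 20.6 and 17.1 in the fasted NTS WT mice, 126, 141 and 67.7 in the fed NTS KO mice and 16.5, 16.3 and 14.3 in the fasted NTS KO mice. It fell in both genotypes, with the lower estimate in NTS KO and a difference of -1.25 (95% interval -1.94 to -0.56), and 2 of the 3 fed NTS KO mice stood above all fed NTS WT mice while the other, with 67.7 CPM, was near them. In fasted liver all 3 NTS KO mice lay below every NTS WT mouse. Trio, an exchange factor for small GTPases, had 11.5, 11.0 and 8.82 CPM in the fed NTS WT mice, 12.5, 14.2 and 11.9 in the fasted NTS WT mice, 16.03, 15.96 and 11.0 in the fed NTS KO mice and 9.85, 10.8 and 9.52 in the fasted NTS KO mice. Its difference was -0.82 (95% interval -1.31 to -0.32). Prom1, the surface protein CD133, had 2.11, 4.38 and 2.08 CPM in the fed NTS WT mice, 0.854, 1.42 and 1.33 in the fasted NTS WT mice, 3.04, 11.1 and 8.14 in the fed NTS KO mice and 0.412, 0.303 and 0.827 in the fasted NTS KO mice, a drop past the threshold in NTS KO and a difference of -2.51 (95% interval -4.10 to -0.93). Tbc1d2, a GTPase-activating protein for Rab GTPases, had -1.38 (95% interval -2.23 to -0.53) and Med12l, a Mediator subunit, -1.17 (95% interval -1.89 to -0.45). The remaining genes of the 8 were the pseudogene Rpl38-ps2 and the predicted genes Gm14403 and Gm10221, whose reads can be shared with near-identical copies.

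**Figure D2:**
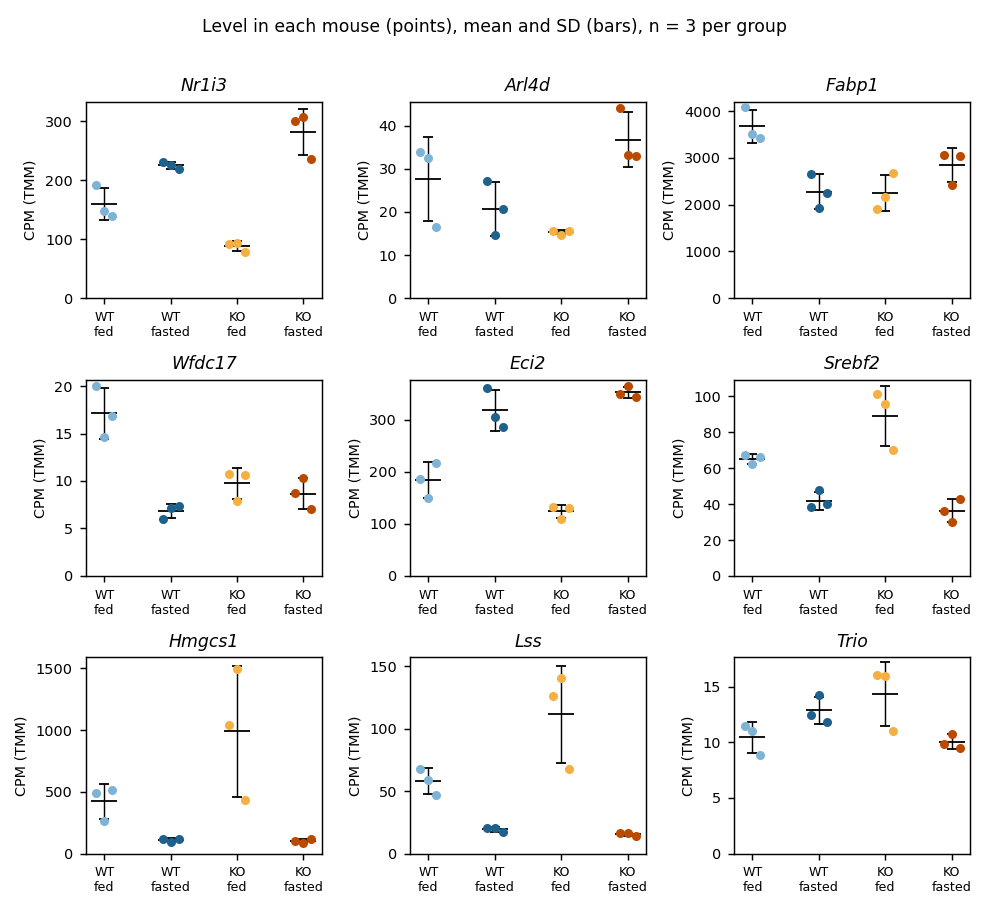
TMM-normalized CPM of 9 genes in each of the 3 mice per group (points), with the group mean and SD (bars). Nr1i3 runs from 78.9 CPM in a fed to 307 in a fasted NTS KO mouse, and for Srebf2, Hmgcs1 and Lss the fed NTS KO mice hold the highest points. The fasted groups overlap for Srebf2 and Hmgcs1, and for Lss the fasted NTS KO mice lie lowest.

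Of the 34 pathway lists, cholesterol synthesis had the lowest median difference (-0.70), followed by de novo lipogenesis (-0.43) and sterol-regulated uptake and feedback (-0.42). At the other end stood the ATF4 stress response (0.34), ketone body synthesis (0.32), the genes of the mitochondrial DNA (0.32) and MHC class II (0.31). The median over all tested genes was -0.020. The order at the upper end depended on single mice and on the filter. The ATF4 median was 0.050 without mouse 290 and -0.082 with at least 10 counts in every mouse, that of the mitochondrial DNA ran from 0.052 without mouse 254 to 0.55 without mouse 323, that of ketone body synthesis from 0.10 without mouse 323 to 0.40 without mouse 257 and that of MHC class II from 0.19 without mouse 257 to 0.65 without mouse 322. Sterol-regulated uptake and feedback ran from -0.63 without mouse 295 to -0.26 without mouse 265. These are counts and medians of lists chosen with earlier results of the data known, members of a list are not independent of each other, and no list was put to a test.

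**Figure D3:**
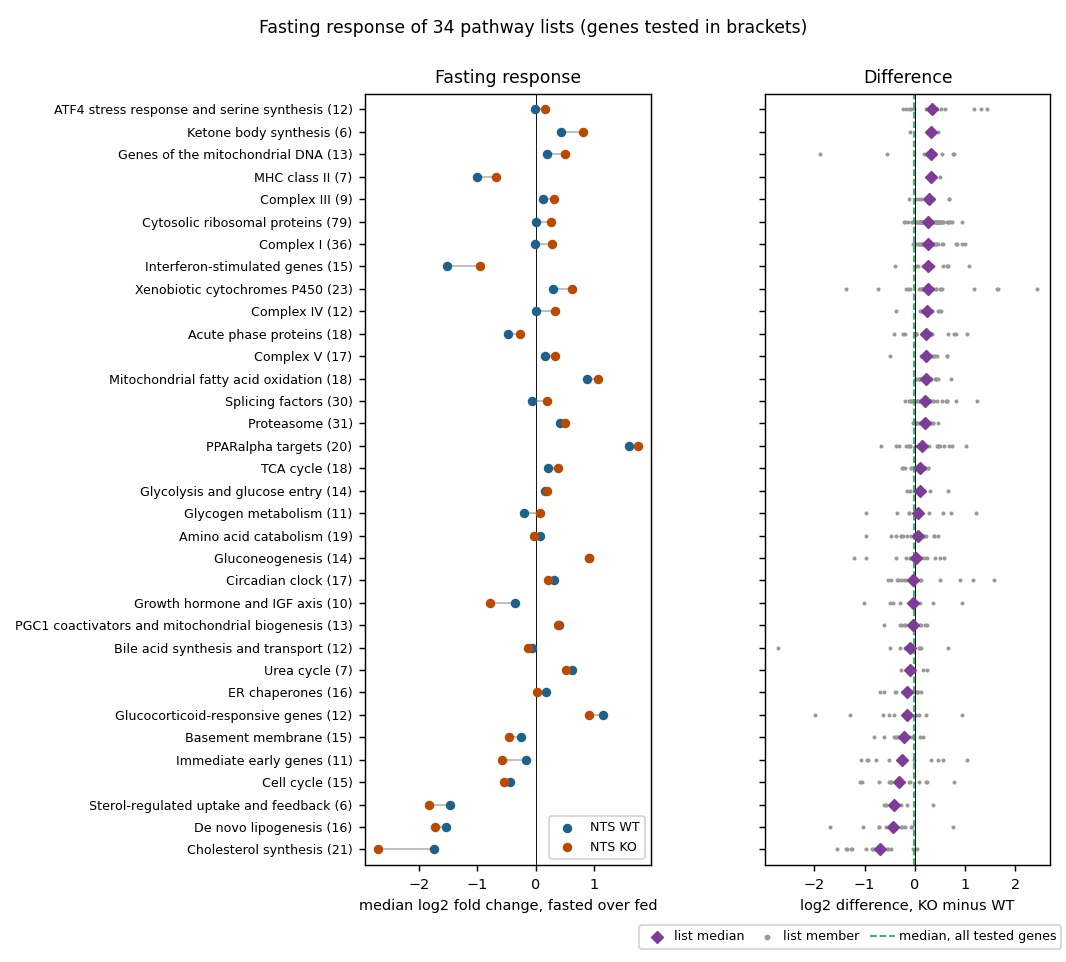
Left, median log2 fold change of fasted over fed liver in NTS WT and NTS KO for 34 pathway lists; right, the difference for each member (points) and the list median (diamonds), with the median of all tested genes (-0.020) dashed. Cholesterol synthesis lies lowest at -0.70, and gluconeogenesis lies at 0.015.

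Cholesterol synthesis genes fell in both genotypes, with the lower estimates in NTS KO. Of their 21 genes, 18 fell in NTS WT and 19 in NTS KO, 18 in both, and none rose. The median response was -1.75 in NTS WT and -2.70 in NTS KO. The difference was below 0 for 20 of 21, and 8 had an unadjusted p under 0.05 with a lower response in NTS KO, a share of 38.1% beside 2.24% of all genes. Those named here, chosen after their values were seen, span the pathway: Acat2 and Hmgcs1 at its entry, Mvd in the mevalonate steps, Fdft1, which commits farnesyl units to sterols, Lss and Dhcr7 among the sterol steps, and Srebf2, the gene of the factor that drives them. The 8 became 3 without mouse 257, 277 or 303 and 15 without mouse 319. No member passed the adjusted threshold.

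The gap between genotypes was estimated wider in fed than in fasted liver. Hmgcs1 had 490.3, 263 and 515 CPM in the fed NTS WT mice, 122, 98.4 and 119 in the fasted NTS WT mice, 1037, 1489.8 and 438 in the fed NTS KO mice and 99.2, 86.9 and 121 in the fasted NTS KO mice. Of its fed NTS KO mice, 2 of 3 exceeded every fed NTS WT mouse, and the fasted mice of the genotypes overlapped. Srebf2 had 67.6, 62.1 and 66.2 CPM in the fed NTS WT mice, 38.2, 47.7 and 40.0 in the fasted NTS WT mice, 101, 95.6 and 69.9 in the fed NTS KO mice and 36.3, 30.3 and 42.7 in the fasted NTS KO mice. All 3 fed NTS KO mice exceeded every fed NTS WT mouse, and the fasted mice again overlapped. Over the list, the median log2 level in NTS KO relative to NTS WT was 0.66 in fed and -0.11 in fasted liver, with 19 of 21 genes above 0 in fed and 5 in fasted mice.

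The mean of the centered log2 CPM over the list was 0.97, 0.55, 0.85 in the fed NTS WT mice and 1.54, 1.81, 0.78 in the fed NTS KO mice. In fasted mice it was -0.87, -0.95, -1.23 for NTS WT and -1.07, -1.36, -1.005 for NTS KO. The lowest of the fed NTS KO values, of mouse 319, lay among those of the fed NTS WT mice, and leaving out each mouse in turn gave a median difference from -0.93 without that mouse to -0.51 without mouse 303, also of the fed NTS KO group.

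Pmvk, Ebp and Tm7sf2, also named after their values were seen, had differences nearest 0, at -0.026, 0.039 and -0.0011. Pmvk fell in both genotypes, with log2 responses of -2.67 in NTS WT and -2.70 in NTS KO. Of the 6 genes of sterol-regulated uptake and feedback, 5 had a difference below 0. Insig2, named after its value was seen, was the only one above 0, at 0.36. It is known to rise on fasting, and it did so in both genotypes.

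**Figure D4:**
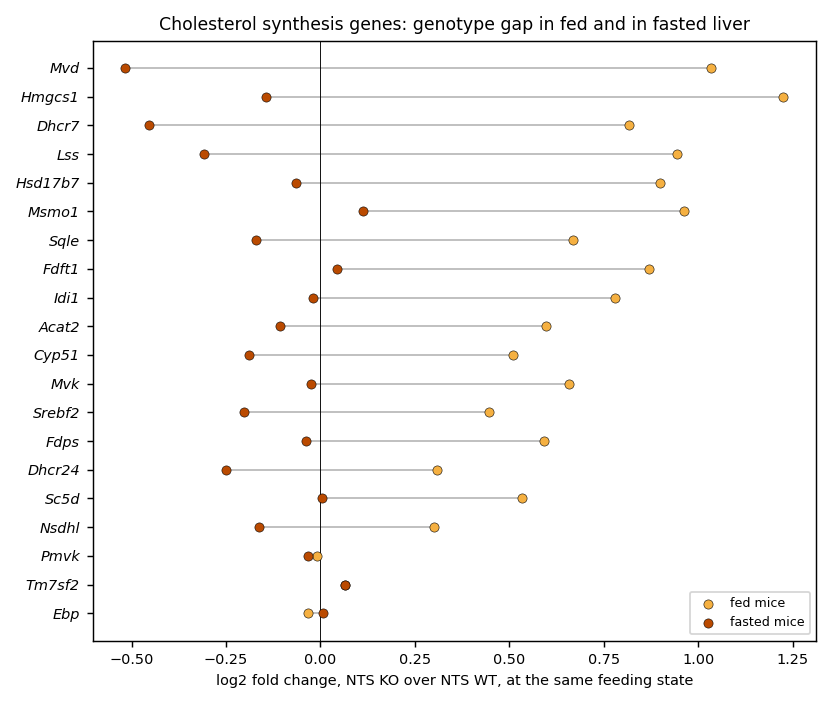
Log2 fold change of NTS KO over NTS WT for 20 of the 21 cholesterol synthesis genes, in fed mice and in fasted mice (fitted group means of 3 mice each). In fed liver 18 of those drawn lie above 0, and in fasted liver 5 do.

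The promoters of the cholesterol synthesis genes are shown for the 2 letter patterns that SREBP2 target promoters are known for. They are the sterol regulatory element bound by SREBP and the CCAAT box bound by its partner NF-Y. The RefSeq promoter table (GRCm38.p6) held windows for 16 of the 21 genes, and the 250 bases before the transcription start were searched on both strands, a gene counting if any of its windows matched. The element TCACNCCAC was found in 1 of the 16, Hmgcs1, in 1 of the 14 de novo lipogenesis genes with a window (7.14%) and in 1.32% of the 10108 tested genes with one. CCAAT was found in 15 of 16 (93.8%), against 40.5% of tested genes, 71.4% of the de novo lipogenesis genes with a window and 29.3% of the ribosomal protein genes with one. A letter match is a description of the sequence and not a bound site, and whether either pattern bears on the difference was not tested. The Hmgcs1 window holds both patterns, in capitals, the element 137 and the CCAAT box (as ATTGG, on the opposite strand) 45 bases before the start. Lss and Srebf2 show the CCAAT box nearest their start, also as ATTGG.
Hmgcs1 (chr13:119690211-119690350, plus strand): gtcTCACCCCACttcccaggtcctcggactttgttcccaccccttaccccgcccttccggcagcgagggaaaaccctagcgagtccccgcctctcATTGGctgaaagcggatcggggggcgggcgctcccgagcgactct
Lss (chr10:76531533-76531557, plus strand): tgatgctctgATTGGccgagctcgc
Srebf2 (chr15:82147124-82147148, plus strand): tcgcgcgccgATTGGctaatgcaag

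De novo lipogenesis lay in the same direction. Of 16 genes, 10 fell in NTS WT and 11 in NTS KO, and 15 differences were below 0. None of these 15 had an unadjusted p under 0.05, and the median of -0.43 ran from -0.63 without mouse 319 to -0.22 without mouse 303, with 4 of 16 above 0 in the latter. Mlxipl, the gene of the glucose-sensing factor ChREBP, was the exception in sign: it had 175, 135 and 80.9 CPM in the fed NTS WT mice, 42.1, 30.7 and 37.2 in the fasted NTS WT mice, 105, 103 and 103 in the fed NTS KO mice and 46.9, 62.5 and 38.8 in the fasted NTS KO mice, fell in both genotypes, and had a difference of 0.76 (95% interval 0.019 to 1.501).

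On the fat-burning side, all 18 genes of mitochondrial fatty acid oxidation had a difference above 0, most of them small. The median response was 0.88 in NTS WT and 1.07 in NTS KO, 12 genes rose in NTS WT and 14 in NTS KO, and the median difference was 0.22, 3 of 18 having an unadjusted p under 0.05 with a higher response in NTS KO, beside 2.56% of all genes. Without mouse 323 the median was 0.14, 13 of 18 lay above 0, and 1 in place of 3 had an unadjusted p under 0.05. Differences ran from 0.0041 for Cpt2 to 0.72 for Eci2, both named as the ends of the range. Eci2, an enoyl-CoA isomerase that handles unsaturated fatty acids, had 186, 149 and 217 CPM in the fed NTS WT mice, 361, 305 and 286 in the fasted NTS WT mice, 132, 109.9 and 130.2 in the fed NTS KO mice and 349, 364 and 343 in the fasted NTS KO mice, with the fed NTS KO mice below all others and a difference of 0.72 (95% interval 0.26 to 1.17). Ketone body synthesis had a median difference of 0.32 over 6 genes, 5 of them above 0. The 20 PPARalpha targets had a median response of 1.60 in NTS WT and 1.76 in NTS KO, 15 rising in NTS WT and 17 in NTS KO, and a median difference of 0.14 with 13 above 0. That median was -0.14 without mouse 323 of the fed NTS WT group and 0.35 without mouse 295 of the fasted NTS KO group.

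Genes of the respiratory chain and of the ribosome had a difference above 0 almost throughout, and few of them passed the test of fasting itself. For the 36 nuclear genes of complex I, the NADH dehydrogenase, the median response was -0.0042 in NTS WT and 0.28 in NTS KO, 3 fell in NTS WT, 1 rose in NTS KO, and 34 of 36 differences were above 0, 9 with an unadjusted p under 0.05, beside 2.56% of all genes. Its median of 0.27 ran from 0.16 without mouse 277 to 0.40 without mouse 319, and the 9 became 3 and 16. Complexes III, IV and V gave 8 of 9, 11 of 12 and 16 of 17 above 0, with medians of 0.29, 0.25 and 0.23, each at its highest without mouse 319 (0.51, 0.45 and 0.39). Ndufa1, an accessory subunit of complex I, had 68.6, 72.3 and 50.5 CPM in the fed NTS WT mice, 43.1, 29.3 and 38.6 in the fasted NTS WT mice, 30.9, 33.3 and 50.8 in the fed NTS KO mice and 45.5, 39.5 and 43.5 in the fasted NTS KO mice, with a difference of 0.95 (95% interval 0.34 to 1.56). Of the 79 ribosomal protein genes, 74 differences were above 0, with a median of 0.27, 12 (15.2%) at an unadjusted p under 0.05, beside the same 2.56%. The median ran from 0.16 without mouse 277 to 0.43 without mouse 319, and the 12 became 2 and 45. Rpl27 had the smallest p, with a difference of 0.94 (95% interval 0.28 to 1.59). Ribosomal protein genes have many processed copies, so their counts can be shared with pseudogenes.

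The 13 genes of the mitochondrial DNA had a median difference of 0.32. All genes with a symbol starting in mt-, a set not restricted to these 13, held 2.24% to 5.81% of counts over the 12 libraries, and the groups overlapped. The TCA cycle had 0.11 with 13 of 18 above 0, the proteasome 0.19 with 29 of 31, and splicing factors 0.20 with 24 of 30. In the proteasome 16 of 31 genes rose in NTS WT and 28 in NTS KO, beside 8.91% and 7.7% of all genes. The median responses were 0.43 in NTS WT and 0.51 in NTS KO, and 0 of the 31 had an unadjusted p under 0.05 for the difference.

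The difference also moved with gene length, and the lists above differ in length. Their median length was 1951 bases for ribosomal proteins, 2898.5 for complex I and 2975 for the proteasome, but 3621 for the TCA cycle and 4560.5 for splicing factors. With the tested genes in 5 bins of equal size, in the bin with the shortest transcripts (130 to 2421 bases) the median difference was 0.14 and 64.6% of genes were above 0. In the bin with the longest (from 6247 bases) the values were -0.16 and 27.2%. The 2 genotypes ran in opposite directions, with a median response of -0.10 for the shortest and 0.10 for the longest bin in NTS WT, and of 0.064 and -0.055 in NTS KO. With the trend on length subtracted, the median difference was 0.20 for complex I, 0.14 for complex III, 0.19 for complex IV, 0.19 for complex V, 0.15 for the genes of the mitochondrial DNA, 0.14 for ribosomal proteins, 0.20 for fatty acid oxidation and -0.68 for cholesterol synthesis. For splicing factors the value was 0.23, for the TCA cycle 0.064 and for the proteasome 0.14. The part of gene length in the list medians beyond that subtraction was not tested.

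**Figure D5:**
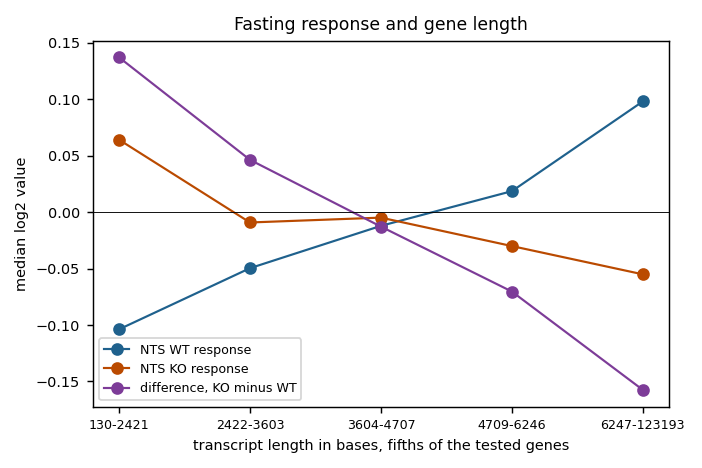
Median response in NTS WT, median response in NTS KO and median difference (log2) in 5 equal bins of the tested genes by the length of their longest transcript. The difference goes from 0.14 in the shortest to -0.16 in the longest bin.

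The interferon and MHC class II lists had a median response below 0 in both genotypes, and most of their differences were above 0. Interferon-stimulated genes fell in both genotypes, 13 of 15 in NTS WT and 11 in NTS KO, with a median response of -1.51 in NTS WT and -0.96 in NTS KO, and 14 of 15 differences were above 0 (median 0.27, from 0.014 to 0.65 with each mouse left out). Of the 7 MHC class II genes, which present antigen, 6 fell in NTS WT and 0 in NTS KO, yet all 7 differences lay between 0.26 and 0.50 and none had an unadjusted p under 0.05. Oas1a, an antiviral sensor of double-stranded RNA, had 7.76, 6.99 and 4.74 CPM in the fed NTS WT mice, 1.52, 0.892 and 2.58 in the fasted NTS WT mice, 3.73, 5.28 and 3.22 in the fed NTS KO mice and 1.83, 2.47 and 2.41 in the fasted NTS KO mice, with a difference of 1.09 (95% interval 0.094 to 2.08).

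Markers of Kupffer cells, the resident macrophages of liver, also had differences above 0, all 8 of them, 3 with an unadjusted p under 0.05 beside 2.56% of all genes, and none was at 0. Their summed level was 561 to 622 CPM in fed NTS WT, 281 to 484 in fasted NTS WT, 361 to 482 in fed NTS KO and 353 to 543 in fasted NTS KO liver. Fed NTS WT liver stood above the other 3 groups, which overlapped, and the highest fasted NTS KO value was that of mouse 290. Without that mouse the median difference was 0.48 in place of 0.71, with 8 of 8 above 0 and 2 at an unadjusted p under 0.05. Of 9 lymphocyte markers, 9 had a difference above 0 (median 0.48), with a summed level of 20.6 to 21.2 CPM in fed NTS WT, 13.6 to 14.6 in fasted NTS WT, 16.6 to 20.3 in fed NTS KO and 12.9 to 28.1 in fasted NTS KO liver and no marker at 0. Without mouse 290 the median was 0.035, and 5 of 9 were above 0. The interferon list was at 0.32 and MHC class II at 0.37 without it. In fed liver the interferon list and the Kupffer markers lay on opposite sides, the median of NTS KO relative to NTS WT being 0.17 and -0.43. Stellate cell markers gave 1 of 8 above 0 (median -0.27), and hepatocyte markers 4 of 6 (median 0.030). In bulk liver RNA, fewer cells of a type and less RNA per cell cannot be told apart, and the part of these cells in Wfdc17, Hcls1, Ifi27l2a and the immune lists was not tested.

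The rest of the marker lists were uneven. Medians were 0.076 over 7 sinusoidal endothelium genes, 0.19 over 4 tested cholangiocyte genes and -0.29 over 5 erythroid genes, whose summed level ran from 233 to 628 CPM. Of the 6 adipocyte and 6 pancreas markers, 1 each was tested, and Lep, Retn, Prss1, Cpa1, Pnlip and Ins2 were at 0. The sum of the adipocyte list was almost wholly Cidec, a lipid droplet gene, at 0.147 to 1.197 CPM in fed and 39.8 to 70.8 in fasted liver, whereas Adipoq stayed at or below 0.216. That of the pancreas list was almost wholly Cela1, an elastase, at 2.66 to 13.3 CPM.

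The remaining pathways showed smaller or mixed differences. Acute phase proteins had a median of 0.23 (15 of 18 above 0), glycolysis and glucose entry 0.095 (11 of 14 above 0), glycogen metabolism 0.074 (7 of 11 above 0), amino acid catabolism 0.055 (11 of 19 above 0) and the urea cycle -0.10 (2 of 7 above 0). In glycogen metabolism, Ugp2, which makes UDP-glucose, had 275, 289.7 and 269 CPM in the fed NTS WT mice, 217, 217 and 216 in the fasted NTS WT mice, 222, 277 and 283 in the fed NTS KO mice and 303, 279 and 419 in the fasted NTS KO mice, and a difference of 0.72 (95% interval 0.25 to 1.18). Below 0 lay the circadian clock at -0.030 (7 of 17 above 0), the growth hormone and IGF axis at -0.042 (4 of 10 above 0), bile acid synthesis and transport at -0.092 (4 of 12 above 0), ER chaperones at -0.15 (4 of 16 above 0) and glucocorticoid-responsive genes at -0.15 (4 of 12 above 0). Basement membrane genes had -0.22 (2 of 15 above 0), immediate early genes -0.25 (4 of 11 above 0) and cell cycle genes -0.32 (4 of 15 above 0). Many of these medians turned with 1 mouse. ER chaperones ran from -0.39 without mouse 265 to 0.29 without mouse 322 and immediate early genes from -0.56 without mouse 284 to 0.20 without mouse 265, the circadian clock from -0.18 without mouse 257 to 0.19 without mouse 290 and the urea cycle from -0.23 without mouse 322 to 0.11 without mouse 265. Bile acid synthesis and transport, the growth hormone and IGF axis, glucocorticoid-responsive genes and amino acid catabolism also took the other sign without 1 mouse, and cell cycle genes were at -0.027 without mouse 303. Igfbp3, a carrier of insulin-like growth factors, had 12.2, 16.5 and 13.7 CPM in the fed NTS WT mice, 14.7, 13.98 and 22.6 in the fasted NTS WT mice, 23.7, 15.2 and 27.2 in the fed NTS KO mice and 12.2, 15.2 and 12.7 in the fasted NTS KO mice, with a difference of -1.004 (95% interval -1.69 to -0.32). Cyp7a1, the rate-limiting enzyme of bile acid synthesis, depended on a single mouse. It had 56.4, 55.1 and 197 CPM in the fed NTS WT mice, 121, 261 and 77.0 in the fasted NTS WT mice, 167, 921 and 55.6 in the fed NTS KO mice and 57.9, 148 and 50.9 in the fasted NTS KO mice, and a difference of -2.73 (95% interval -6.04 to 0.58). Its highest value, 921 CPM, came from the fed NTS KO mouse that also had the highest Hmgcs1, and without that mouse the Cyp7a1 difference was -0.94.

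Of the neurotensin system itself, Ntsr1 had 0 counts in all 12 libraries and Ntsr2 1 count in 1 of them, which leaves Sort1. It had 17.7, 11.4 and 11.0 CPM in the fed NTS WT mice, 10.7, 10.3 and 9.57 in the fasted NTS WT mice, 16.03, 11.3 and 14.2 in the fed NTS KO mice and 9.07, 6.75 and 5.24 in the fasted NTS KO mice. Sort1 fell in NTS KO (-0.99, edgeR adjusted p = 0.00864) and had an estimate of -0.39 in NTS WT, with a difference of -0.60 (95% interval -1.27 to 0.070). All 3 fasted NTS KO mice lay below every fasted NTS WT mouse. A count of 0 allows up to 3 counts, which is 0.0663 to 0.136 CPM, depending on the library, and this floor covers counting error only.

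For 29 of 13812 genes (0.21%), fed and fasted mice did not overlap in either genotype and the direction was opposite. Trio, Med12l, Rpl17-ps8 and Gm26675 were among them, Med12l by a small margin and past the threshold in neither genotype. For Gm26675 the nearest fed and fasted values were 0.0369 and 0.0271 CPM in NTS WT and 0.0403 and 0.0458 in NTS KO. All of these lie below 0.0663 CPM, the lowest level that 3 counts make in any library, so its lack of overlap rests on single reads or so. Called genes of opposite sign in the other genotype numbered 59 for NTS WT and 47 for NTS KO. Of those named by the rule, Lrfn4, Fbxo47 and Fsbp had mean levels of 0.317, 0.347 and 0.556 CPM, and Fabp1 one of 2759.8.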

How the data were processed

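RNAseq was measured in total RNA of 12 mouse livers, 3 per group. The deposited values are expected counts per gene, and the submitters' processing notes name Trimmomatic, RSEM and the genome build GRCm38, without versions or strand setting, and other steps are not given in the sources used here. Libraries held 21999647 to 45273069 counts. Expected counts were rounded, genes were filtered with edgeR's filterByExpr, and 1 model of 4 group means was fitted in edgeR 4.0.16 (quasi-likelihood, robust, TMM) under R 4.3.3, with Benjamini-Hochberg adjustment and a threshold of 0.05. The difference was (NTS KO fasted minus fed) minus (NTS WT fasted minus fed). Its 95% interval came from the standard error and degrees of freedom of the fit, and 20 genes had none. P-values measure the spread between separate mice. Sampling variance was removed from r by subtracting the mean squared standard error. Scripts were tested on simulated data. Transcript lengths came from GENCODE vM39 (longest transcript), used for length alone.

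Genes were named by this rule: 24 canonical fasting-side and fed-side genes and the neurotensin system, the 8 smallest p on each side with a mean of at least 1 CPM, genes past the threshold in edgeR or DESeq2, the smallest p of each pathway list, and up to 5 genes per genotype called with the opposite sign in the other. Lists and members were chosen with earlier results of these data known. Alternatives were other normalizations, DESeq2 1.42.0, limma-voom (limma 3.58.1), other count filters, leaving out mitochondrial DNA genes, the 6 mice of a genotype alone, removal of the length trend, a threshold of 0.10, a log2 fold change of at least 1 and leaving out each mouse, with the list counts without a mouse chosen after seeing the data. All mice carry 1 batch label (2015), so no batch could be split. Some genes that the rule names are not reported here.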

Additional observations from a re-analysis of the deposited data

Results flagged for a closer look

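In 4 of the genes named in the report, every fasted mouse lay on the opposite side of every fed mouse in the 2 genotypes, and this difference in direction was picked out from the values and not tested beyond the edgeR contrast, which none passed. Over all genes, 29 of 13812 showed such a pattern. Trio had a difference of -0.82, and 2 of its 3 fed NTS KO mice lay above all 3 fasted NTS WT mice. Med12l had -1.17, with 2.95, 2.91 and 3.06 CPM in the fed NTS WT mice, 4.46, 4.83 and 4.28 in the fasted NTS WT mice, 3.20, 2.39 and 2.34 in the fed NTS KO mice and 2.34, 1.95 and 1.18 in the fasted NTS KO mice, the nearest fed and fasted NTS KO values being equal at this rounding, and it overlaps Igsf10, P2ry12, P2ry13 and P2ry14. Rpl17-ps8, a pseudogene that overlaps Heph, had 1.48 at a mean of 1.26 CPM. Gm26675, which overlaps Naa60 and Zfp597, had a fitted difference of 10.14 that depends on the prior count and is no bound, since its levels were 0.0369, 0.184 and 0.754 CPM in the fed NTS WT mice, 0, 0 and 0.0271 in the fasted NTS WT mice, 0, 0 and 0.0403 in the fed NTS KO mice and 0.0458, 1.08 and 1.37 in the fasted NTS KO mice. The nearest fed and fasted values of Gm26675 lie below the 3-count level in both genotypes, so its separation of the mice is not secure.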

How the results depend on the processing

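No paired analysis was possible because the labels give each mouse its own number and the groups share none. The count of genes for the difference stayed at 0 under every other normalization, filter and threshold tried, except for the 3 of DESeq2, and with each mouse left out it was 0 to 1. The 1 gene, without mouse 323, was Gm44002, named after its value was seen, with a count of 0 in at least 1 mouse. Of the genes named, 3 (Nr1i3, Arl4d, Gm26675) passed with DESeq2. Calls with a log2 fold change of at least 1 were 911 in NTS WT and 915 in NTS KO. With each mouse left out, NTS WT calls were 1224 to 2770, NTS KO calls 1358 to 2631 and shared calls 937 to 1453. NTS WT calls were 1326, 1596 and 1224 without mice 254, 257 and 282, NTS KO calls 1358, 1523 and 1365 without mice 277, 284 and 290, and shared calls 969 and 937 without mice 254 and 282.

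The agreement of the responses depended on the genes included. Pearson r was 0.249 with no count filter, 0.791 with at least 10 counts in every mouse, 0.768 with each genotype fitted alone, 0.840 above the median expression and 0.5996 to 0.665 with a mouse left out. Spearman rho was 0.342 with no filter, 0.762 above the median and 0.569 to 0.660 with a mouse left out. The variance-corrected r was 0.387 with no filter and 0.751 to 0.864 with a mouse left out, and the slope was 1.46 by the inverted regression of NTS WT on NTS KO. The no-filter values include genes with few counts. For the others the cause was not tested.

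With each mouse left out, the median difference ran from -0.14 to 0.35 for PPARalpha targets, 0.10 to 0.40 for Ketone body synthesis, 0.17 to 0.51 for Complex III, 0.16 to 0.45 for Complex IV, 0.13 to 0.39 for Complex V, -0.23 to -0.011 for PGC1 coactivators and mitochondrial biogenesis, -0.43 to 0.0088 for Glucocorticoid-responsive genes, -0.24 to 0.021 for Growth hormone and IGF axis, -0.18 to 0.19 for Circadian clock, 0.19 to 0.65 for MHC class II, 0.014 to 0.65 for Interferon-stimulated genes, -0.44 to -0.027 for Cell cycle and 0.16 to 0.43 for Cytosolic ribosomal proteins. The ATF4 list was at -0.082 with at least 10 counts in every mouse. Single genes whose difference, never past the threshold, changed sign with a mouse left out ran from -0.32 to 0.58 for Ppargc1a, -0.20 to 0.31 for Cpt1a, -0.38 to 0.51 for Fgf21, -0.031 to 0.66 for Cyp4a14, -0.087 to 0.48 for Cd36, -0.98 to 0.14 for Scd1, -0.88 to 0.056 for Elovl6, -0.24 to 0.11 for Me1 and -1.41 to 0.069 for Pnpla3, and Fgf21 was at -0.15 with the length trend removed. Differences of low genes such as Gm26675 and Rpl38-ps2 are limited by counts near 0.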
